A study of Mus musculus with 16 samples.

Results

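The Slco genes encode organic anion transporting polypeptides, membrane carriers that move bile acids, bilirubin, steroid conjugates, thyroid hormones, prostaglandins and many drugs into cells. Open chromatin was examined at 7 of them, Slco1b2, Slco1a4, Slco1a1, Slco1a6, Slco1a5, Slco2b1 and Slco2a1. DNase hypersensitive sites (DHS), stretches of open chromatin where DNase I releases many short fragments, were taken within 20 kb of each gene. DHS of 4 deposited lists that shared at least 1 bp were joined, and 39 of the 51482 joined regions fell at these genes. They lay at 5 of the 7 genes, with 9 regions at Slco1b2, 6 at Slco1a4, 4 at Slco1a1, 9 at Slco2b1 and 11 at Slco2a1, and with none at Slco1a6 or Slco1a5.

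Livers came from both sexes of 2 inbred strains, the laboratory strain C57BL/6J (B6), whose genome is the mouse reference, and the wild-derived strain CAST/EiJ (CAST). Mice were aged 8 weeks, with no treatment or engineered allele in the labels. Purified liver nuclei received 32 units of DNase I per sample. There were 16 libraries, 4 for each sex and strain, and the 4 libraries of a group had been pooled before DHS were called. Each group thus has 1 list and no replicate error, so the comparisons below set list against list and carry no test.

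Hepatocytes take up bile acids and drugs from blood through carriers in their sinusoidal membrane, where Slco1b2, Slco1a1, Slco1a4 and Slco2b1 products act beside the sodium-dependent bile acid carrier Slc10a1. In mouse liver Slco1a1 is known as a gene with higher RNA in males and Slco1a4 as one with higher RNA in females, and Slco1a4 is a target of the xenobiotic receptors Nr1i2 and Nr1i3. Sex differences of mouse liver genes follow the pattern of pituitary growth hormone, which acts through the factor STAT5. RNA was not measured in these libraries.

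Sequences of 201 bases centred on the highest summit of 8 regions are shown, read from mm9 (the B6 genome) in the direction of transcription of the gene. They are the strongest region of Slco1b2, Slco2b1 and Slco2a1, the region just upstream of Slco1a1 and of Slco1a4, and 3 regions with the differences between strains or sexes described further on. CAST letters were not used here. Capitals mark motif letters found by search on both strands, namely STAT5 (TTCNNNGAA), HNF4 (CAAAGTCCA), FOXA (TGTTTAC) and C/EBP (TTGCNNAA), where N is any base. In the Slco1a1 sequence the middle capitals are STAT5 letters and the flanking capitals are C/EBP letters, and in the Slco2a1 sequence 12.1 kb upstream the capitals are C/EBP and then HNF4 letters.
Slco1b2 intron, 11.4 kb downstream of the 5′ end, chr6:141589323-141589523, plus strand: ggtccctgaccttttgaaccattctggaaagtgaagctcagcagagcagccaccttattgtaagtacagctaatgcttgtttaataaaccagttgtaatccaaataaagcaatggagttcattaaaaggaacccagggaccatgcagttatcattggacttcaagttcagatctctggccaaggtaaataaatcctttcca
Slco1b2, 18.5 kb upstream, chr6:141559420-141559620, plus strand: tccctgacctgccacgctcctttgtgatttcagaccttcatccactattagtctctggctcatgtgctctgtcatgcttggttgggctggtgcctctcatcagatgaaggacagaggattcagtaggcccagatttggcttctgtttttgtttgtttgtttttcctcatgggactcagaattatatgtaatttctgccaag
Slco1a1, 0.9 kb upstream, chr6:141896272-141896472, minus strand: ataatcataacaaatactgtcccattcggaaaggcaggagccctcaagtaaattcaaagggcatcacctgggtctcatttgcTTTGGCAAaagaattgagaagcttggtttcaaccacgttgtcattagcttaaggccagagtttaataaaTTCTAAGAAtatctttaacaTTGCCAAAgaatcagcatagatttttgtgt
Slco1a4, 1.9 kb upstream, chr6:141806558-141806758, minus strand: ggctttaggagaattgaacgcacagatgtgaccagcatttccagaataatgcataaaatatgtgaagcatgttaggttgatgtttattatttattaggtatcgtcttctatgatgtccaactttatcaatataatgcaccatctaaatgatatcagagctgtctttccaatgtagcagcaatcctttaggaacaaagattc
Slco1a4, 15.8 kb upstream, chr6:141820403-141820603, minus strand: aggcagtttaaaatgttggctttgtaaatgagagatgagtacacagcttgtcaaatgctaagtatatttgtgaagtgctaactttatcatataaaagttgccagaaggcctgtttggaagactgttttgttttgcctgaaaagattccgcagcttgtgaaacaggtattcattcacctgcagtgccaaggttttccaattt
Slco2b1 intron, 30.6 kb downstream of the 5′ end, chr7:106829106-106829306, minus strand: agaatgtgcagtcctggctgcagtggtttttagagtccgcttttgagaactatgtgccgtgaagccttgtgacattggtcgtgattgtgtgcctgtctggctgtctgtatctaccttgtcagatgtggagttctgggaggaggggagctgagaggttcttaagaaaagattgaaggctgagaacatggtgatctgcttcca
Slco2a1, 12.1 kb upstream, chr9:102898639-102898839, plus strand: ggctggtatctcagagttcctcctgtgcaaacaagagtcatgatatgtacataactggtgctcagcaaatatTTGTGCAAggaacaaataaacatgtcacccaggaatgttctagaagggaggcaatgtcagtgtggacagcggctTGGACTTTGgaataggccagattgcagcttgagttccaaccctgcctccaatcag
Slco2a1, 81.9 kb downstream of the 5′ end, chr9:102992629-102992829, plus strand: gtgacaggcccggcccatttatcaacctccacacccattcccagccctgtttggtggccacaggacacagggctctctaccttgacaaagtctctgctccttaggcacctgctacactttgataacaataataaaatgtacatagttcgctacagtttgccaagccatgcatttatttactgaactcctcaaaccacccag

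The strength of a DHS is given as its fold enrichment, the deposited MACS2 ratio of fragments piled up at the summit to the local background that MACS2 used for that list. A region with 2 peaks of a list took the stronger. The whole-number pileup behind each fold was recovered from the fold and its p-value, and the genome-wide background so recovered was 15.4 overlapping fragments in B6 males, 13.9 in B6 females, 14.3 in CAST males and 7.94 in CAST females. The lists held 38751, 26271, 39562 and 24888 DHS in that order. As a check of the tissue, 5 of 6 hepatocyte marker genes (Alb, Ttr, Apoa1, Apob and Cps1, without Serpina1c) had a DHS within 2.5 kb of a start site in every list, and none of 5 Kupffer cell or 4 brain and muscle markers had one. Sinusoidal endothelial markers had such a DHS for 4 of 5 genes in B6 males, 3 in B6 females, 3 in CAST males and 1 in CAST females. Stellate cell markers had one for 2, 1, 1 and 0 of 5 genes, and bile duct markers for 1 of 4 (Sox9) in each list. The part of these other cells in the DHS described here was not tested.

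Most Slco regions were found in several lists. Of the 39, 19 (48.7%) were found in all 4 lists, 8 (20.5%) in 3, 4 (10.3%) in 2 and 8 (20.5%) in a single list. Over all 51482 regions the shares were 35.6%, 12.1%, 17.2% and 35.2%. The male B6 list held 32 of the 39, female B6 29, male CAST 32 and female CAST 23. Of all 51482 regions these lists held 38392, 25718, 39235 and 24355 in the same order. After all lists were scaled to the background of the female CAST list and peaks under a common p were dropped, the Slco counts were 32, 27, 32 and 23. The median fold enrichment of the Slco regions was 4.05, 3.35, 4.48 and 4.13 in that order of lists, beside 3.5, 3.31, 3.75 and 4.1 over all regions. At the 19 Slco regions found in all 4 lists the medians were 5.18, 3.69, 5.69 and 4.84, beside 5.35, 3.88, 5.8 and 4.66 for all such regions.

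**Figure D1:**
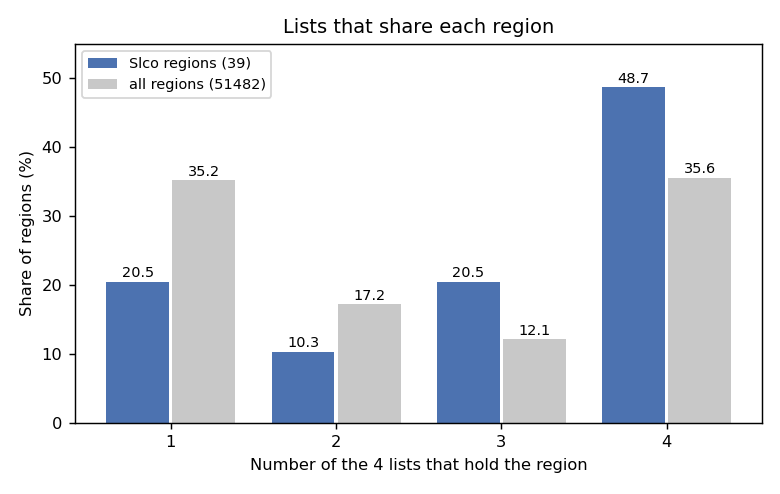
Share of regions (%, vertical axis) by the number of the 4 lists that hold them, for the 39 Slco regions and all 51482 regions. The Slco bar is higher at 4 lists (48.7% against 35.6%) and lower at 1 list (20.5% against 35.2%).

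Slco1b2, which encodes the main carrier for bile acid and bilirubin uptake that does not depend on sodium in mouse hepatocytes, lies at chr6:141578039-141635167 on the plus strand. Its strongest DHS was not at the start site but in an intron, 11.4 kb into the gene (the first sequence above). Fold enrichment there was 6.76 in B6 males, 4.80 in B6 females, 9.46 in CAST males and 8.02 in CAST females, on summit pileups of 275, 117, 376 and 126 fragments. These values stood at percentiles 84.5, 77.1, 93.0 and 90.2 of their lists. Both CAST values were above both B6 values.

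The Slco1b2 start site itself was open in all 4 lists but weakly. The region at chr6:141577614-141578350 covers the first UTR exon, and its fold enrichment was 3.19 in B6 males, 3.08 in B6 females, 3.6 in CAST males and 3.69 in CAST females. These values lay between percentiles 40.4 and 47.0 of their lists, so the promoter of this strongly liver-enriched gene was a DHS of below-median strength. Upstream of it, 3 regions formed a cluster that was present in every list, 14, 15.3 and 18.5 kb from the start site.

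The upstream region at 18.5 kb (chr6:141559180-141559856) had another order of strains than its neighbours. Fold enrichment was 5.69 in B6 males, 3.88 in B6 females, 3.18 in CAST males and 3.17 in CAST females, so here both B6 lists were above both CAST lists. In fold enrichment as deposited the 2 neighbouring regions had CAST above B6 in both sexes, with 4.77, 3.48, 6.03 and 6.10 at 14 kb and 3.11, 3.26, 4.5 and 4.09 at 15.3 kb in the same order of lists. After each ratio was centred on the median of all regions found in both lists, B6 was 1.89-fold above CAST in males (95% counting interval 1.5 to 2.38) and 1.45-fold in females (1.01 to 2.1) at 18.5 kb. The centred ratio of B6 over CAST was 0.835 in males (0.679 to 1.03) and 0.677 in females (0.488 to 0.935) at 14 kb, and 0.730 in males (0.572 to 0.929) and 0.946 in females (0.665 to 1.35) at 15.3 kb. At 15.3 kb the centred ratio of female over male was 1.38 in B6 (1.02 to 1.86) and 1.08 in CAST (0.794 to 1.46). The B6 value was the largest centred sex ratio of the Slco regions in B6 in either direction. In fold enrichment as deposited, male over female was 0.955 there in B6. The intervals rest on the summit pileups, and they cover counting error and not the difference between animals.

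Inside Slco1b2, the region 6.1 kb from the start site had a fold enrichment of 5.44 in CAST males, 4.06 in CAST females and 3.15 in B6 males, and it was not in the female B6 list. In males, CAST was 1.64-fold above B6 after centring (1.27 to 2.12). The region 3.5 kb from the start site (chr6:141581403-141581829, overlapping a UTR exon) was the only Slco region found in both male lists and in neither female list, with 2.11 in B6 males and 2.56 in CAST males. It was 1 of 39 (2.56%), beside 9.38% of all regions with these lists. It was among the weakest DHS of those lists, at percentiles 6.62 and 20.7. Had the female lists held it at the male strength, corrected for the list-wide shift between the sexes, its −log10 p would have been 2.70 in B6 and 5.29 in CAST, beside 3.56 and 3.55 for the weakest DHS of those lists. The projected value was thus below the weakest DHS in B6 females and above it in CAST females. A weak intronic region 33.0 kb into the gene was found in the male CAST list alone, with 2.56, and one 61.9 kb from the 5′ end, past the gene, in B6 females (2.34) and CAST males (4).

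Slco1a4 and Slco1a1 lie beyond Slco1b2 on chromosome 6, both on the minus strand, at chr6:141753961-141804720 and chr6:141855803-141895483. At Slco1a4, a carrier of bile acids and of the cardiac drug digoxin, the DHS 1.9 kb upstream of the start site (chr6:141806197-141807264) had fold enrichment of 5.18 in B6 males, 4.17 in B6 females, 6.52 in CAST males and 4.85 in CAST females. The male value was above the female value in each strain, yet after centring the male-to-female ratio was 0.941 in B6 (0.707 to 1.26) and 1.13 in CAST (0.807 to 1.6), and both intervals held 1. The start site proper carried a much weaker DHS, with 2.04 in B6 females, 2.33 in CAST males and 2.50 in CAST females, and male B6 had none. Only the female B6 peak covered the annotated 5′ end. The summit of the female CAST peak lay 105 bp and that of the male CAST peak 496 bp inside the gene.

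Further upstream of Slco1a4, regions at 10.1 and 12.7 kb were present in all 4 lists, with fold enrichment of 5.58, 4.16, 5.69 and 5.58 and of 4.38, 2.72, 5.69 and 4.84 for male B6, female B6, male CAST and female CAST. The strongest Slco1a4 region was thus the one at 10.1 kb in B6 males and CAST females and the one at 1.9 kb in CAST males, and in B6 females the 2 were about equal. At 12.7 kb the centred ratio of B6 over CAST was 0.667 in females (0.467 to 0.954) and 0.812 in males (0.654 to 1.01). A region 15.8 kb upstream (chr6:141820220-141820836) was found in both B6 lists, with 3.81 in males and 2.80 in females, and in neither CAST list. It was the only Slco region with this set of lists, 1 of 39 (2.56%) beside 3.32% of all regions. A weak intronic region 9.0 kb into the gene, 1505 bp from a further annotated start site, had 3.31, 2.67 and 3.54 in B6 males, B6 females and CAST males and was not in the female CAST list.

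At Slco1a1, a carrier of bile acids and steroid conjugates, the promoter DHS reached across the start site in both male lists. The region at chr6:141894979-141896857 had fold enrichment of 4.05 in B6 males, 2.41 in B6 females, 6.09 in CAST males and 4.13 in CAST females, with pileups of 117, 35, 174 and 45 fragments. In both male lists it was a single peak over the start site and the DNA upstream of it, 1833 bp wide in B6 and 1709 bp in CAST, with the summit 805 and 889 bp upstream. In female B6 only the upstream part was called, as a peak of 546 bp that ended 648 bp before the start site. Female CAST had 2 separate peaks, one of 641 bp upstream and one of 560 bp over the start site with a fold enrichment of 2.61.

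Counted as bases under peaks, male exceeded female at this region 3.36-fold in B6 and 1.42-fold in CAST. Over the 18309 regions found in all 4 lists the median ratios were 1.2 and 1.27, and 13.6% of those regions had a ratio of at least 1.42 in both strains. So did 2 other Slco regions, 40.8 kb into Slco2a1 (1.51 in B6 and 1.57 in CAST) and 81.9 kb from its 5′ end (1.64 and 1.45). After centring, the summit ratio of male over female was 1.27 in B6 (0.866 to 1.91) and 1.24 in CAST (0.888 to 1.76), above 1 in both strains with intervals that held 1. Between strains, CAST was 1.42-fold above B6 in males (1.12 to 1.82) and 1.44-fold in females (0.906 to 2.31).

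**Figure D2:**
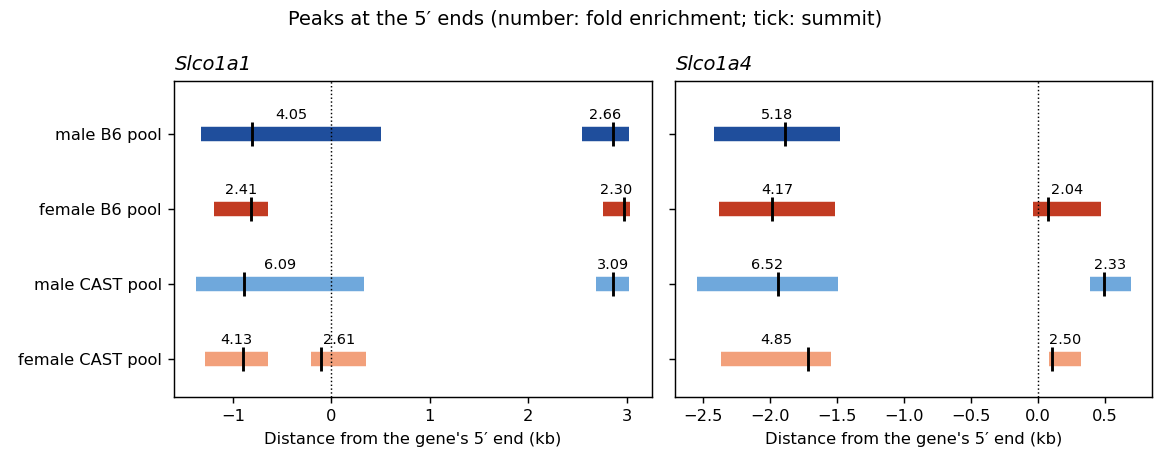
Peaks around the 5′ ends of Slco1a1 and Slco1a4, by distance from the 5′ end in the direction of transcription (kb); bars are the extents of single peaks in each pooled list, ticks their summits and numbers their fold enrichment. The male Slco1a1 peaks run across the 5′ end (4.05 and 6.09), female CAST has 2 peaks (4.13 and 2.61) and female B6 1 upstream peak (2.41).

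The other regions of Slco1a1 lay away from its 5′ end. Those 13.6 and 15.8 kb upstream were in all 4 lists, with fold enrichment of 5.24, 3.63, 5.50 and 6.17 and of 4.52, 3.69, 4.82 and 4.83 for male B6, female B6, male CAST and female CAST. At 13.6 kb the centred male-to-female ratio was 1.09 in B6 (0.812 to 1.49) and 0.750 in CAST (0.559 to 1.01). An intronic region 2.9 kb into the gene had 2.66, 2.30 and 3.09 in B6 males, B6 females and CAST males and was not listed in CAST females. Its peak was 483 bp wide in B6 males and 278 bp in B6 females, and its centred male-to-female ratio in B6 was 0.876 (0.603 to 1.29).

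The promoter patterns of Slco1a1 and Slco1a4 were compared with those of 9818 other genes that had a DHS near a start site in all 4 lists. The pattern is the log2 fold enrichment in the 4 lists, centred on each list's median and on the gene's own mean. Closest to Slco1a1 were Stx17, BC030499 and Lrrc33, at distances of 0.04, 0.05 and 0.08 log2 units, and closest to Slco1a4 were Tmem184a, Tsc22d3 and Srrm1, at 0.03, 0.03 and 0.04. The comparison rests on 4 values a gene. With 9818 genes to choose from, the nearest are close by selection, so the small distances carry no result of their own. They were not set against counting error.

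Slco1a6 and Slco1a5, paralogues next to Slco1a1 that are known for expression outside the liver, had no DHS in any list. Only reads placed at a single position had been kept, and how far such reads can cover these paralogues was not tested. Their windows, gene and flanks together, measured 162.8 and 128.8 kb. Of 22380 protein-coding genes 25.1% had no region within the same distance, and of the 2732 genes with a window of at least 128.8 kb 13.4% had none. Slco1a1, with 4 regions, had more regions than 64.7% of all genes, and Slco1a4, with 6, more than 82.4%. The Slco1b2 and Slco2b1 counts of 9 were above those of 94.1% of genes and the Slco2a1 count of 11 above 96.7%. Longer windows can hold more regions, and per kb of window Slco1b2, Slco2b1 and Slco2a1 stood above 86.1%, 87.4% and 85.8% of genes.

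Slco2b1, a carrier of steroid sulfates and drugs in liver, gut and other tissues, lies at chr7:106806314-106859850 on the minus strand and had no DHS within 2.5 kb of its outermost 5′ end. Instead, start sites annotated inside the gene were open in all 4 lists. The region 15.6 kb inside (chr7:106843786-106844611, over a UTR exon and a start site) had fold enrichment of 4.65 in B6 males, 3.45 in B6 females, 4.92 in CAST males and 4.13 in CAST females. Its centred ratios were 1.02 for male over female in B6 (0.772 to 1.37) and 0.999 in CAST (0.728 to 1.39), and 1 for B6 over CAST in males (0.788 to 1.27) and 0.990 in females (0.692 to 1.42), the closest to 1 of the Slco regions near a start site that all 4 lists held. The neighbouring region, 16.9 kb inside, had 5.86, 3.98, 5.03 and 5.51 in the same order of lists.

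The strongest Slco2b1 DHS was intronic, 30.6 kb inside the gene (chr7:106828884-106829710). Fold enrichment was 9.91 in B6 males, 5.79 in B6 females, 9.49 in CAST males and 7.44 in CAST females, at or above percentile 86.1 of each list, and the 4 summits lay within 6 bp of each other. It was male-higher by 1.30-fold in B6 after centring (1.03 to 1.64), while in CAST the ratio was 1.07 (0.832 to 1.39). A further region 46.5 kb inside, over a coding exon and a start site, had 5.57, 4.18, 6.83 and 5.52 for male B6, female B6, male CAST and female CAST.

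Downstream of Slco2b1, the region 62.4 kb from the 5′ end had 4.16 in B6 males, 3.42 in B6 females and 2.69 in CAST males and was not in the female CAST list. Its nearest annotated start site was that of Gm15635, 12283 bp away, and the nearest of Slco2b1 was 15776 bp away, so it cannot be assigned to Slco2b1 from its position. In males B6 was 1.63-fold above CAST after centring (1.09 to 2.48). Another 3 downstream regions, at 68.4, 69.1 and 69.9 kb, and an intronic one at 8.7 kb were found in B6 males alone, with fold enrichment of 2.76, 2.54, 2.79 and 2.60. With the region 64.6 kb into Slco2a1 they make 5 Slco regions in that list alone (12.8%), beside 14.2% of all regions. The nearest annotated start site of the 3 downstream ones was that of Gm4980, 15112 to 16512 bp away, and the nearest of Slco2b1 was 21893 to 23395 bp away, with the same limit. All 4 were at or below percentile 32.0 of that list. At their male strength, corrected for the list-wide shift, 3 of the 4 would have stood above the weakest DHS of the female B6 list and the one at 69.1 kb below it, with a −log10 p of 3.46 against 3.56.

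Slco2a1 encodes the prostaglandin transporter, which clears prostaglandins from the circulation, and lies at chr9:102910817-102990179 on the plus strand. The strongest DHS of any Slco gene lay past its 3′ end, 81.9 kb from the 5′ end, in intergenic DNA at chr9:102992276-102993318. Fold enrichment was 11.4 in B6 males, 9.59 in B6 females, 13.8 in CAST males and 10.2 in CAST females, at percentiles 97.5, 98.3, 98.9 and 96.4 of the lists. The nearest annotated start site was not that of Slco2a1 but that of Rab6b, a Rab GTPase gene, 21086 bp away, so the region cannot be assigned to Slco2a1 from its position. Centred ratios between sexes and strains ran from 0.870 to 1.13.

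At the Slco2a1 start site the region at chr9:102909944-102911129 had 4.05 in B6 males, 3.29 in B6 females, 3.93 in CAST males and 2.87 in CAST females. The region 12.1 kb upstream had the largest sex ratio of the Slco regions in CAST, with 6.42 in B6 males, 4.03 in B6 females, 6.79 in CAST males and 3.61 in CAST females. The male lists were above the female lists in both strains, and after centring male exceeded female 1.58-fold in CAST (1.09 to 2.34) and 1.21-fold in B6 (0.908 to 1.62). The region 19.9 kb upstream had 3.44, 2.57 and 4.46 in B6 males, B6 females and CAST males and was not in CAST females.

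Inside Slco2a1, an intronic region 30.4 kb from the 5′ end (chr9:102940869-102941358) was the only Slco region found in both CAST lists and in neither B6 list, with 2.82 in males and 2.84 in females and with summits 5 bp apart. It was 1 of 39 (2.56%), beside 3.62% of all regions. The region at 40.8 kb was in all 4 lists, with 3.32, 3.35, 4.18 and 3.71. The remaining 5 intragenic regions, at 25.1, 28.6, 64.6, 68.6 and 69.6 kb, were in 1 to 3 lists with fold enrichment between 2.14 and 3.58.

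**Figure D3:**
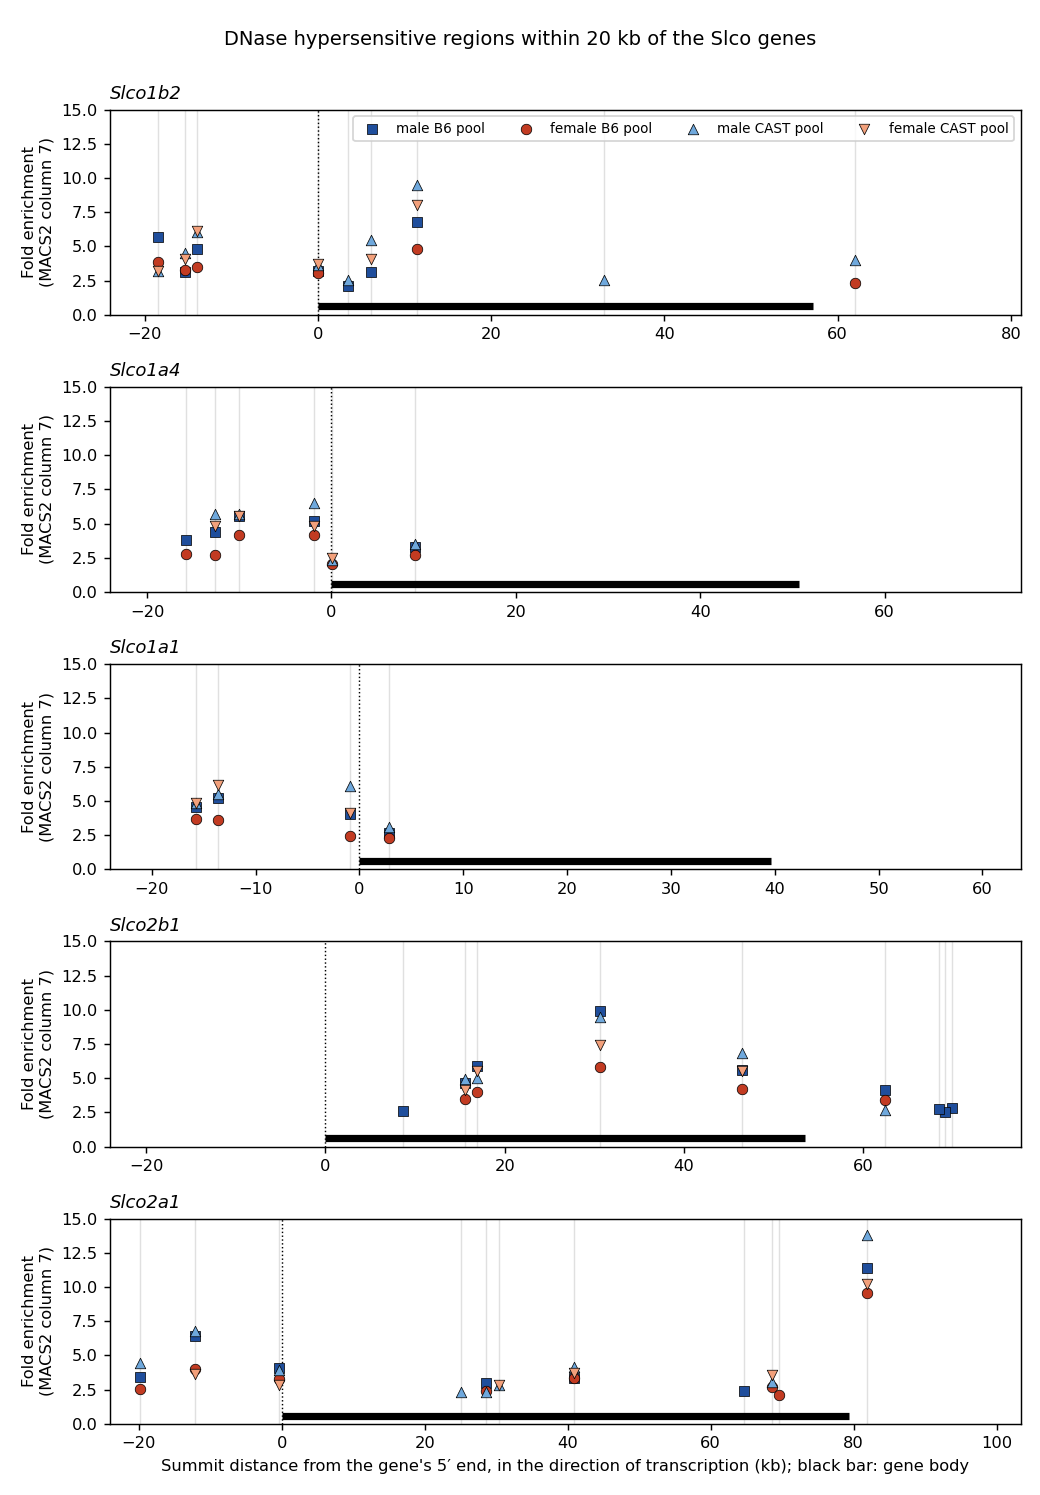
Fold enrichment (vertical axis, MACS2 column 7) of each DHS region against the distance of its highest summit from the 5′ end of its gene (kb, in the direction of transcription), with 1 symbol for each pooled list and the gene body as a black bar. Slco1b2, Slco2b1 and Slco2a1 have their strongest regions away from the 5′ end, at 11.4, 30.6 and 81.9 kb, and symbols are missing where a list held no DHS.

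Between the sexes, most Slco DHS were found in both lists and differed little once the list-wide shift was taken out. The same held over all regions. In B6, 25 of 36 regions (69.4%, Wilson 95% interval 53.1 to 82.0) were in both lists, 7 in the male list alone and 4 in the female list alone. Over all regions 58.4% were in both B6 lists, 36.4% in the male alone and 5.13% in the female alone. In CAST, 23 of 32 (71.9%, 54.6 to 84.4) were in both, 9 in the male list alone and 0 in the female list alone, beside 55.8%, 40.3% and 3.9% over all regions. The male-only shares of the Slco regions, 7 of 36 and 9 of 32, were below those of the genome, untested, and the 4 female-only regions in B6 (Slco1b2 at 61.9 kb, Slco1a4 at the start site, and Slco2a1 at 68.6 and 69.6 kb) were above. Of these 4, 3 were in the male CAST list. Among all 2074 female-only regions of B6, 273 were in the male but not the female CAST list, and 157 were in both CAST lists. Of the male-only regions, 4 of 7 in B6 and 6 of 9 in CAST would have stood above the weakest DHS of the female list at their male strength, beside 54.4% and 56.8% of all male-only regions. The projection is not given for regions missing from a male list or from the other strain, since at least 98.1% of all such regions would have stood above the weakest DHS.

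The lists differed as a whole, with a median log2 ratio over all shared regions of 0.40 for male over female in B6, 0.25 in CAST, −0.08 for B6 over CAST in males and −0.25 in females, and ratios were read against that shift. The median centred log2 ratio of male over female at Slco regions was 0.02 in B6 (range −0.47 to 0.38) and −0.08 in CAST (−0.46 to 0.66). None of the 25 and 23 regions passed 2-fold in either direction. Over all regions found in both lists 0.186% passed 2-fold toward males and 0.0338% toward females in B6, and 0.255% and 0.114% in CAST. At 1.5-fold, a limit added after the values were seen, 0 of 25 passed in B6, beside 2.62% toward males and 2.6% toward females of all regions. In CAST 1 of 23 passed toward males, the region 12.1 kb upstream of Slco2a1, and 0 toward females, beside 3.31% and 2.56%.

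Between the strains, 26 of 38 regions (68.4%, 52.5 to 80.9) were found in both male lists, with 6 in B6 alone and 6 in CAST alone. Over all regions 60.0% were in both, 19.1% in B6 alone and 20.9% in CAST alone. In females 21 of 31 (67.7%, 50.1 to 81.4) were in both, with 8 in B6 alone and 2 in CAST alone, beside 59.1%, 22.6% and 18.3%. The 6 B6-only regions of males comprised the 3 downstream of Slco2b1, the one 8.7 kb into it, the one 15.8 kb upstream of Slco1a4 and the one 64.6 kb into Slco2a1.

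The median centred log2 ratio of B6 over CAST at Slco regions was −0.12 in males (range −0.71 to 0.92) and −0.11 in females (−0.58 to 0.54). No region passed 2-fold, beside 0.801% toward B6 and 1.51% toward CAST of all regions in males and 0.317% and 0.785% in females. At 1.5-fold 2 of 26 passed toward B6 in males (Slco1b2 at 18.5 kb upstream and Slco2b1 at 62.4 kb) and 1 toward CAST (Slco1b2 at 6.1 kb), beside 4.49% and 6.68% of all regions. In females 0 of 21 passed in either direction, beside 3.42% and 4.97%. The counting interval of the ratio left out 1 for 6 of 26 regions in males, beside 22.7% of all regions, and for 4 of 21 in females, beside 12.8%. In the sex comparisons it did so for 2 of 25 in B6, beside 11.8%, and for 1 of 23 in CAST, beside 9.84%.

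**Figure D4:**
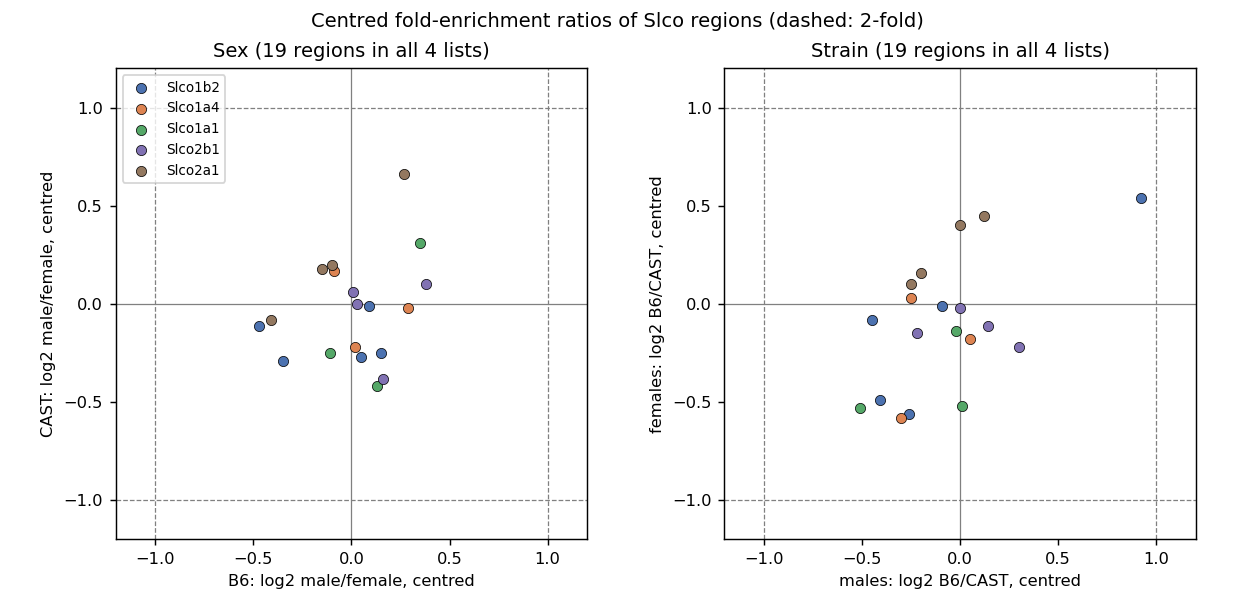
Centred log2 ratios of fold enrichment at the 19 Slco regions found in all 4 lists, male over female in B6 (horizontal) and CAST (vertical) on the left, and B6 over CAST in males (horizontal) and females (vertical) on the right; colours mark genes and dashed lines 2-fold. No point lies beyond a dashed line, and the point farthest to the right in the strain panel is the region 18.5 kb upstream of Slco1b2 (0.92 and 0.54).

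Within 150 bases either side of the summits, STAT5 letters were found at 5 of the 39 regions (12.8%), beside 10.2% of all regions. They were the regions 0.9 and 15.8 kb upstream of Slco1a1, 12.7 kb upstream of Slco1a4, and 16.9 and 30.6 kb inside Slco2b1, and all 5 were found in every list, which makes 5 of the 19 regions found in all 4 lists, beside 9.03% of all such regions. HNF4 letters were at 4 regions (10.3% beside 1.68%), namely 12.1 and 19.9 kb upstream of Slco2a1, 15.6 kb inside Slco2b1 and 61.9 kb from the 5′ end of Slco1b2. C/EBP letters were at 9 (23.1% beside 17.2%) and FOXA letters at 0 (beside 6.62%). Among the 19 regions of all 4 lists C/EBP letters were at 6 (beside 15.9% of all such regions), HNF4 letters at 2 (beside 1.68%) and FOXA letters at 0 (beside 5.89%). STAT5 letters are the same on both strands, and none of the 4 motifs can lie inside another. From 250 bases before to 50 after the start site of each gene, STAT5 letters were at Slco1b2 alone of the 7 genes (7.94% of 22380 promoters). C/EBP letters were at Slco1a5 alone (10.3%), and HNF4 and FOXA letters at none (0.456% and 3.11%). A match of letters does not show binding, and the missing letters say nothing about the factors.

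Other genes of the family and of the pathway were examined from 2 lists of genes. Of 8 other Slco genes, 5 (Slco4c1, Slco5a1, Slco6b1, Slco6c1 and Slco6d1) had no DHS within 20 kb, and only Slco4a1 had one within 2.5 kb of a start site in all 4 lists. Slco1c1, a thyroid hormone carrier of the brain barrier that lies upstream of Slco1b2, had a DHS near a start site in B6 males, female B6 and male CAST, with highest fold enrichment of 5.52, 2.95 and 4.49, and none in CAST females. All 11 regulators and partners (Slc10a1, Hnf4a, Foxa2, Cebpa, Nr1i2, Nr1i3, Nr1h4, Stat5a, Stat5b, Bcl6 and Cux2) had such a DHS in both female lists and in CAST males, and 10 in B6 males, where Cux2, a repressor known for higher RNA in female liver, had none. A start-site DHS in all 4 lists was common, as the 9818 genes compared above show. The share over all genes was not computed, so these counts are not a result about the pathway.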

How the data were processed

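DNase-seq libraries of liver nuclei (16, 4 for each sex and strain) were grouped from their titles. According to the study's methods, the authors kept reads that Bowtie2 placed at a single position, on mm9 for B6 and on a CAST version of the genome for CAST (with coordinates then converted to mm9), pooled the 4 libraries of a group, called DHS with MACS2 and removed blacklisted regions. The methods describe MACS2 peaks as signal above input DNA, in a passage on ChIP-seq and DNase-seq together. Tool names and mm9 are also in the submitters' processing notes. The deposited lists hold, for each peak, a score (10 times the −log10 q, cut to a whole number), a fold ratio of summit pileup to local background, the −log10 p-value, the −log10 q-value and the summit position. The score was not used further. Pooling leaves no replicate error, and the libraries behind a pool differed in enrichment per the study's quality data.

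Coordinates count from 1 on mm9, with start sites from GENCODE vM1. Peaks sharing 1 bp were joined, and regions overlapping a gene or its 20 kb flanks were its members. Summit pileups were recovered from the p-value and the fold, to whose 2 terms MACS2 adds 1, and lay within 0.02 of a whole number for at least 99.9% of peaks of each list. Depth itself is not in the lists. Ratios were centred on the median of all regions in both lists. Intervals of 95% are Wilson for shares and exact conditional (Clopper-Pearson) for ratios of pileups, and cover counting error only. The projected value of a missing region took the fold found in the other list, shifted by the list-wide median. No test was made, since each group had 1 list.

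The members and gene lists were chosen with earlier results of these data known. Regions were named by rule (nearest a start site, strongest, past 2-fold the same way in both strains or sexes, or found in a single sex or strain throughout), and all others were named after their values were seen. No region met the 2-fold part of the rule. Some items are not reported here. Alternatives were windows of 5 and 50 kb, 50% reciprocal overlap, a stricter q (−log10 q of 15.7), lists of equal size (24888 peaks each), depth-scaled lists and other scalings of the ratio. Joining, recovery and ratios were tested on simulated data. Python 3.11.15, NumPy 2.4.6, pandas 2.3.3, SciPy 1.17.1 and Matplotlib 3.10.9 were used.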

Additional observations from a re-analysis of the deposited data

Results flagged for a closer look

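One region showed opposite patterns between groups. The DHS 61.9 kb from the 5′ end of Slco1b2, downstream of the gene at chr6:141639578-141640422, was found in female B6 with a fold enrichment of 2.34 (34 fragments at the summit) and in male CAST with 4 (69 fragments), and in neither male B6 nor female CAST. It was therefore listed in the female alone in B6 and in the male alone in CAST, and likewise in CAST alone among males and in B6 alone among females. The female B6 peak was weak, at percentile 13.1 of its list, and its summit lay 226 bp from that of the male CAST peak. Of all 51482 regions, 273 (0.53%) had this combination of lists. With 1 list a group the difference between the strains in the sex effect was not tested.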

How the results depend on the processing

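No paired analysis was possible because each group was a single list of pooled libraries, which also leaves no replicate to omit. The number of Slco regions in a list stayed within 1.5 times its value with a 50 kb window, with lists of equal size and with depth-scaled lists. With a 5 kb window it was 18 for B6 males, 18 for B6 females and 15 for CAST females, and with the stricter threshold 21, 12 and 14, both because fewer regions or peaks were kept. The share of Slco regions found in both lists stayed within its Wilson interval under the other alternatives, but with lists of equal size it rose to 82.8% for male against female B6 and to 88.5% for B6 against CAST males. No Slco region passed 2-fold under any scaling. With a limit of 1.5-fold, added after the values were seen, the count became 1 toward males in CAST, and among males 2 toward B6 and 1 toward CAST. Without centring the median log2 ratio moved to 0.42 and 0.17 for male over female in B6 and CAST and to −0.36 for B6 over CAST in females. Read depth is not in the lists. With all lists scaled to the lowest background (7.94 fragments, female CAST), 35501, 24360, 36683 and 24888 peaks were left in male B6, female B6, male CAST and female CAST.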

Other observations

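At the 19 Slco regions found in all 4 lists the summits of a region spanned a median of 105 bp over the lists (range 6 to 500), beside 91 bp for all such regions. The span was above 250 bp at 4 of the 19, beside 17.1% of all such regions. At 30.6 kb inside Slco2b1 the 4 summits spanned 6 bp, at 10.1 kb upstream of Slco1a4 34 bp, and at the 14, 15.3 and 18.5 kb regions upstream of Slco1b2 58, 48 and 48 bp. The widest span among regions of all 4 lists was 500 bp, at 15.8 kb upstream of Slco1a1, where the female CAST summit lay 15778 bp upstream and the other summits between 15278 and 15391 bp. A span of 262 bp at the Slco1b2 start site came from a female CAST summit 38 bp inside the gene, while the other summits lay 166 to 224 bp upstream. Spans were 265 bp at the strongest Slco1b2 region, 11.4 kb into the gene, and 272 bp at 1.9 kb upstream of Slco1a4. Among regions of 3 lists, the start site of Slco1a4 had a span of 419 bp and the region 6.1 kb into Slco1b2 one of 274 bp.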
